A study of Homo sapiens with 9 samples.

Results

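H3R8me2a is a mark on histone H3 in which arginine 8 carries both of its methyl groups on the same nitrogen. It was mapped by ChIP-seq in BEAS-2B cells with and without mdig. All islands of the H3R8me2a libraries on chromosomes 1 to 22 and X were taken, 6871 in WT and 9511 in mdig KO, which makes 16382 of the 141448 islands held by 8 libraries of 4 marks. BEAS-2B is an immortalized line of human bronchial epithelial cells. Mdig, a JmjC domain protein also called mina53, is encoded by RIOX2. The KO cells came from colonies picked after CRISPR-Cas9 editing of that gene, and the WT cells were colonies of the same experiment that still made mdig. All colonies had passed selection with blasticidin. Each genotype had 1 H3R8me2a library, so the spread between cultures is not known, no test was possible and no p-value is given. Differences between the genotypes are differences between 2 libraries, each from cells grown out of selected colonies, and an effect of mdig cannot be told apart from a difference between colonies.

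Each island is a start and an end on a grid of 200 bp with no height or read number, so the depth behind it is unknown. A longer covered length cannot be told apart from a more permissive call. H3K4me3 was read at the promoters of marker genes of several cell types. It was present at 11 of 15 epithelial markers in both genotypes (among them CDH1, EPCAM and KRT8) and at 7 of 10 mesenchymal markers (among them VIM and FN1). Of 10 leukocyte markers 1 had it, CD14, and of 10 neuron markers 8 had it in WT and 7 in KO (among them SNAP25 and MAPT). These lists thus did not single out an epithelial identity.

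Arginine 8 of histone H3 sits next to lysine 9, the residue methylated in heterochromatin. Asymmetric dimethylation is written by type I arginine methyltransferases, of which PRMT2 is the known writer at this residue, and it is found at active promoters and enhancers. The symmetric form of the same residue is written by PRMT5 and goes with repression.

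To show what kind of DNA carried the mark, the 250 bases before the annotated start are printed for 5 genes, with each CG dinucleotide in capitals. They are read from GRCh37, 5′ to 3′ on the strand of the gene. PRMT2, the H3R8 writer, and HOXC9, a developmental transcription factor, had H3R8me2a at the promoter in KO but not in WT. RAI14, an actin-binding protein of adhesions, and HMGCS1, an enzyme of cholesterol synthesis, had it in WT but not in KO. BTG2, an antiproliferative early response gene and cofactor of PRMT1, had it across its whole region in both.
PRMT2 (chr21:48055257-48055506, plus strand): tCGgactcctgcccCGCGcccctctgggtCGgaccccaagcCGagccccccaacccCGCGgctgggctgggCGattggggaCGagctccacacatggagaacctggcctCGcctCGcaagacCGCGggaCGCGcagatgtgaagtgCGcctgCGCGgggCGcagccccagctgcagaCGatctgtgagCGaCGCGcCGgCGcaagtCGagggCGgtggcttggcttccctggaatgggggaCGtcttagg
HOXC9 (chr12:54388429-54388678, plus strand): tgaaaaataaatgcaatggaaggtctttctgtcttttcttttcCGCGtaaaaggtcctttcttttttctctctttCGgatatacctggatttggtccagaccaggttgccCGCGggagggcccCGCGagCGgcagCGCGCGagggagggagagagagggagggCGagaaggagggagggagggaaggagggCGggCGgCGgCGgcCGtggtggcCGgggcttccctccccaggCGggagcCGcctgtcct
RAI14 (chr5:34656183-34656432, plus strand): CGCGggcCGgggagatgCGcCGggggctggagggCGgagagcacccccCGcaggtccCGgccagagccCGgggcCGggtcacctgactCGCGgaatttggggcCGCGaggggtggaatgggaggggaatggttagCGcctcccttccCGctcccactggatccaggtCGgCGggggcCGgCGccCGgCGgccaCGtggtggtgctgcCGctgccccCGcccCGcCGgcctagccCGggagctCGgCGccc
HMGCS1 (chr5:43313615-43313864, minus strand): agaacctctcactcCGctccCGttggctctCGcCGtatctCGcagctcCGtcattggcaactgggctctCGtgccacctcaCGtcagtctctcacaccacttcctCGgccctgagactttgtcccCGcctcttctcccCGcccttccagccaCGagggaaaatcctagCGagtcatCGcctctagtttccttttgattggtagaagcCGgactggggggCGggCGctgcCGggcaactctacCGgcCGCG
BTG2 (chr1:203274369-203274618, plus strand): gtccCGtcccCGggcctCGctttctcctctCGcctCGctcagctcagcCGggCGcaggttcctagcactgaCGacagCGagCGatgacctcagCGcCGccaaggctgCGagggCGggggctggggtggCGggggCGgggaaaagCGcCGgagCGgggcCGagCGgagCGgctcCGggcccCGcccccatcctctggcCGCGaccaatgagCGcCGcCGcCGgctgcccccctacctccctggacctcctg

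The number of CG dinucleotides in these windows was 28 for PRMT2, 20 for HOXC9, 30 for RAI14, 21 for HMGCS1 and 30 for BTG2. The median over 20094 protein-coding promoters with known bases was 14. Promoters with H3R8me2a in both libraries had a median of 20, those with it in WT but not KO 19, and those with it in KO but not WT 17. Promoters with H3K4me3 in both genotypes and no H3R8me2a had 18, and the remaining promoters without H3R8me2a had 4. The GC box letters GGGCGG, searched on both strands, were in 63.7% of promoters with H3R8me2a in both libraries, in 63.0% of those in WT alone, 58.9% of those in KO alone and 59.1% of those with H3K4me3 and no H3R8me2a, against 48.8% of all promoters. For the AP-1 letters TGANTCA, which read the same on both strands, the shares were 3.64%, 5.29%, 4.205% and 3.97% against 5.45% of all. The classes with H3R8me2a lay close to the H3K4me3 promoters without it, and all lay above the remaining promoters without H3R8me2a in CG number. A match of letters is a description of sequence and not of binding.

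The islands of WT added up to 62.3 Mb and those of KO to 100.4 Mb, so that the KO to WT ratio was 1.61. The paper reports no significant change of the mark's level in ChIP-seq and no reproducible one in its histone methylation profiling. A level is another measure than the covered length compared here. Of these bases 40.8 Mb were covered in both libraries, 21.6 Mb in WT alone and 59.6 Mb in KO alone. The median island was 6.8 kb long in WT and 7.8 kb in KO. Islands of 20 kb or more numbered 542 in WT and 1077 in KO and held 25.9% and 32.6% of the covered bases. An island of KO was met by 71.8% of those of WT (95% Wilson interval 70.7% to 72.8%, which covers the counting of islands and not the spread between cultures), while 51.8% of those of KO met 1 of WT (50.8% to 52.8%). WT islands without a KO partner were shorter than those with one, with a median of 5.2 kb against 7.4 kb, and KO islands without a WT partner had 7.2 kb against 8.6 kb.

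The longest islands lay on different genes in the libraries. In WT the longest was 94.6 kb, on chr9:137219001-137313600 over RXRA, a retinoid receptor, and 93.6 kb of it lay under KO islands. The next 4 were all on the short arm of chromosome 5, over SLC12A7, ROPN1L and, with 2 islands of 70 kb and 67 kb, TRIO, a guanine nucleotide exchange factor. The 70-kb island within TRIO had no base under H3R8me2a in KO and the 67-kb island at its 5′ end had 66 kb. In KO the longest island was 145 kb, on chr3:128066401-128211400 over EEFSEC, DNAJB8 and the hematopoietic factor GATA2, and 15.4 kb of it lay under WT islands. The others were 120 kb on chromosome 20 outside coding genes, 111.4 kb over TPRA1 and the replication helicase MCM2 on chromosome 3, 111 kb over BAIAP2 and AATK on chromosome 17, and 101.6 kb over CEP131, TEPSIN, NDUFAF8 and SLC38A10 on chromosome 17. The chromosome 20 island and both chromosome 17 islands were mostly under WT islands too, with 111.4 kb, 107.4 kb and 87.4 kb.

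H3R8me2a was a promoter mark in both genotypes. The promoter was taken as 2 kb on both sides of the annotated start, and it counted as marked where an island covered at least 1 base. Of 20098 protein-coding genes, 5533 (27.5%) had H3R8me2a at the promoter in WT and 7096 (35.3%) in KO. The mark was at 4456 promoters in both libraries, at 1077 (5.36%) of WT only and at 2640 (13.1%) of KO only. Where both libraries had an island at the promoter, the longest one was longer in KO at 59.6% of promoters and shorter at 37.8%, with medians of 7.2 kb in WT and 8.4 kb in KO. Promoters marked in WT alone lay under islands with a median of 4.6 kb and those marked in KO alone under islands of 7.6 kb. The short RNA and noncoding genes showed the same direction. The promoter was marked at 2307 of 18592 lncRNA genes in WT and 3007 in KO, at 243 and 361 of 3029 miRNA genes, and at 154 and 277 of 9949 processed pseudogenes.

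Around the starts of the 12720 genes with H3K4me3 at the promoter in both genotypes, the mark peaked 800 bp downstream of the start in both libraries. At the peak 38.3% of these genes were covered in WT and 47.4% in KO. At 20 kb upstream the shares were 7.04% and 13.03%, and at 20 kb downstream 8.40% and 14.2%. H3K4me3 peaked nearer to the start, at 200 bp downstream. Both libraries had the same shape, and KO was above WT at the peak and on both flanks. The 6818 genes with H3K4me3 in neither genotype had no peak. At their start 1.86% carried H3R8me2a in WT and 5.62% in KO, less than the 3.39% and 6.67% found 20 kb upstream.

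**Figure D1:**
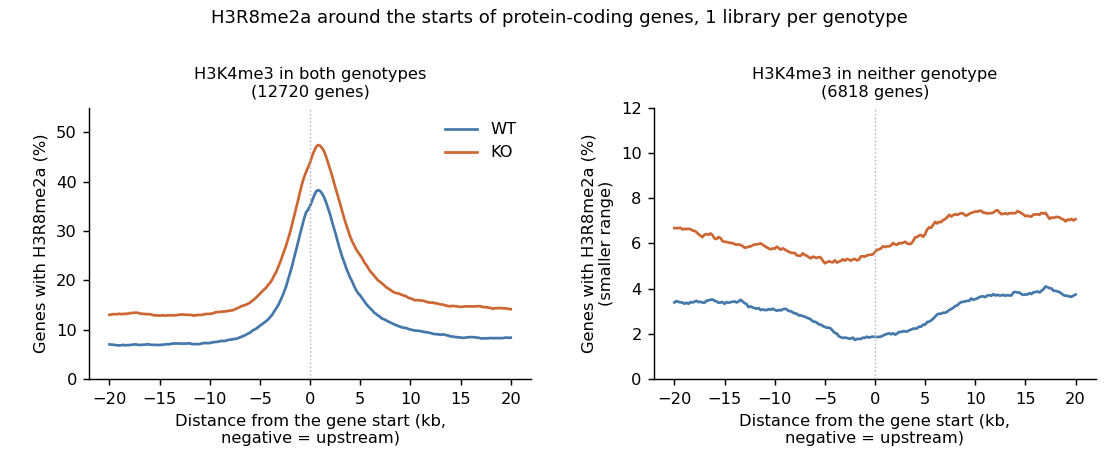
Share of genes with H3R8me2a (%, vertical axis) by distance from the gene start (kb, horizontal axis) in WT (blue) and KO (orange), for genes with H3K4me3 at the promoter in both genotypes (left) or in neither (right, smaller range). On the left both lines peak just downstream of the start, at 38.3% and 47.4%, and on the right both dip near the start, with KO above WT throughout.

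Within genes of at least 20 kb, coverage was highest at the 5′ end and the ratio of the libraries was lowest there. Each of these 11628 genes was cut into 10 equal parts. Part 1 was covered to 15.9% in WT and 20.9% in KO, a ratio of 1.31. Part 2 had 7.48% and 11.4%. The ratio was 1.74 in part 5 and 1.93 in part 10, where 4.70% was covered in WT and 9.05% in KO. The factor between the libraries was thus larger toward the 3′ end, where both covered less.

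The bases covered in KO alone lay less often at promoters than the shared bases. Promoters held 26.4% of the shared bases, 16.8% of those in WT alone and 14.5% of those in KO alone, against 2.55% of the genome. Introns of coding genes held 47.1%, 49.2% and 50.4%, against 41.0% of the genome. Coding exons and UTRs outside promoters held 11.5%, 7.87% and 10.95%, against 3.34%. Bases between genes made up 10.8%, 18.4% and 18.6%, against 38.1%. By islands, 61.6% of those in WT and 56.9% of those in KO touched a promoter. The rest lay mostly in gene bodies, 1978 islands in WT and 3123 in KO, while 329 and 563 lay outside coding and lncRNA genes. KO islands without a WT partner had a median GC content of 52.8%, as had the WT islands with a KO partner (52.8%). WT islands without a KO partner had 49.7%. Stretches of the same length 50 kb beyond the islands had 47.8%, 47.3% and 43.9%.

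H3K4me3, the mark of active promoters, lay under much of H3R8me2a, and its share was smaller in the bases covered in 1 library alone. Islands of H3K4me3 from the same genotype lay under 50.7% of the H3R8me2a bases of WT and 43.7% of those of KO, against 3.13% and 3.602% of the genome. In the WT H3K4me3 library the shares were 59.4% for shared bases, 34.3% for WT alone and 25.6% for KO alone. Conversely, 35.6% of the H3K4me3 bases of WT and 42.9% of those of KO carried H3R8me2a.

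The bases covered in KO alone were those with the most H3K27me3, the Polycomb mark. In WT cells, H3K27me3 lay under 15.2% of them, 1.68 times its share of the genome, and under 4.40% of the shared bases and 5.83% of those in WT alone, which was 0.49 and 0.65 times its share. The H3K27me3 library of KO gave 15.3%, 4.79% and 6.91%. H3K9me3, the heterochromatin mark, lay in KO under 10.9% of the bases in KO alone, 8.56% of those in WT alone and 5.18% of the shared bases, against 6.87% of the genome. In WT it lay under 1.02%, 2.11% and 0.78%, against 1.86%. Of the bases in KO alone, 60.7% carried none of the other 3 marks in WT and 50.4% none in KO. Overlap of marks in a population of cells does not show that they share a nucleosome or a cell.

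**Figure D2:**
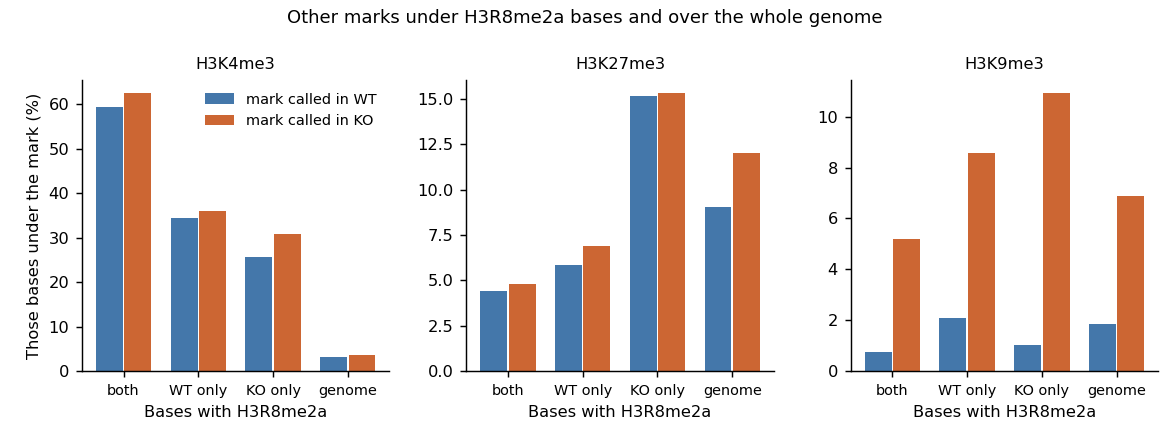
Share (%, vertical axes, each with its own range) of the H3R8me2a bases covered in both libraries, in WT alone or in KO alone, and of the genome, that lay under H3K4me3, H3K27me3 or H3K9me3 as called in WT (blue) or KO (orange). H3K4me3 is highest in the shared bases, at 59.4% and 62.4%, and H3K27me3 in the bases of KO alone, at 15.2% and 15.3%.

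H3R8me2a followed the length of H3K4me3. The promoters with H3K4me3 in both genotypes were split into 5 groups by the length of the longest H3K4me3 island there in WT. From the shortest to the longest group, H3R8me2a was at 5.70%, 22.3%, 39.8%, 58.8% and 76.8% of promoters in WT and at 12.7%, 30.5%, 48.8%, 69.6% and 87.7% in KO. KO was higher in each of the 5 groups. Promoters with H3K4me3 in neither genotype were at 2.58% and 7.17%. At the 2640 promoters with H3R8me2a in KO alone, 83.4% had H3K4me3 in WT and 84.1% in KO. Where these had H3K4me3 in both, its island was longer in KO at 70.9% and shorter at 24.8%, with medians of 6 kb and 7.2 kb. The 987 such promoters with H3R8me2a in WT alone had a longer H3K4me3 island in KO at 51.1% and a shorter one at 42.4%.

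Bivalent promoters, those with H3K4me3 and H3K27me3 in both genotypes, are a hallmark of poised developmental genes. H3R8me2a was at 205 of the 1304 (15.7%) in WT and at 403 (30.9%) in KO. It was at 45.5% and 54.1% of the 10933 promoters with H3K4me3 and no H3K27me3, and at 1.73% and 7.49% of the 2135 with H3K27me3 and no H3K4me3. The promoters that had H3K9me3 in KO but not in WT, 1687 in all, had H3R8me2a at 10.7% in WT and 18.7% in KO, and those with H3K9me3 in neither at 29.6% and 37.5%. No class was lower in KO but for the 23 promoters with H3K9me3 in WT alone, with 8 and 6.

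The chromosomes differed far more than the whole-genome ratio. Of 41 chromosome arms, 32 had more covered length in KO and 9 had less. With each ratio divided by that of the whole genome, 22 of the 41 lay above 1. The lowest ratios were 0.19 on 18q (0.838 Mb in WT and 0.161 Mb in KO), 0.31 on 5p (3.17 and 0.993 Mb) and 0.43 on 10q (2.50 and 1.07 Mb), followed by 0.44 on 6q, 0.50 on 22q, 0.64 on 10p, 0.67 on 15q, 0.87 on 5q and 0.94 on 14q. The highest were 11.9 on 3p (0.345 and 4.11 Mb), 4.43 on 7q (0.623 and 2.76 Mb), 4.17 on 16q (0.480 and 2.00 Mb) and 4.03 on 11q (1.46 and 5.89 Mb). The arms of chromosome 3 both lay high, with 2.94 on 3q, and those of chromosome 5 both lay below 1.

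The other marks moved with these arms. On 18q the KO to WT ratio was 0.80 for H3K4me3, 0.93 for H3K27me3 and 1.35 for H3K9me3, the lowest arm value of each. On 3p it was 1.53, 2.29 and 10.8, the highest of each. The 5 arms with less H3K4me3 in KO were all among the 9 with less H3R8me2a. Over 41 arms the rank correlation with the H3R8me2a ratio was 0.70 for H3K4me3, 0.50 for H3K27me3 and 0.63 for H3K9me3. Points on this scale share the cells, the genome and the islands' calling, and arms are not replicates. The DNA content of the arms in the colonies was not tested, since the islands carry no reads and input DNA was not analysed here.

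**Figure D3:**
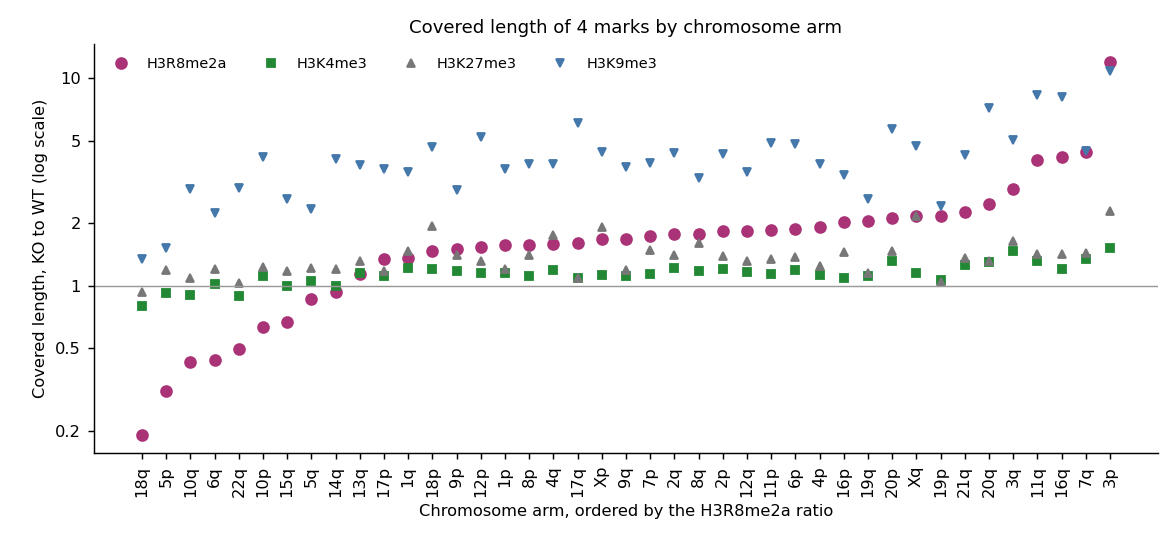
Ratio of the length covered in KO to that in WT (vertical axis, log scale) for 41 chromosome arms (horizontal axis, ordered by the H3R8me2a ratio) and 4 marks, 1 library per mark and genotype. H3R8me2a runs from 0.19 on 18q to 11.9 on 3p, with 9 arms below 1, while H3K4me3 runs from 0.80 to 1.53 and is also lowest on 18q and highest on 3p.

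The ratio was also computed on a part of the arms. On the 27 arms whose H3K4me3 ratio lay within 0.1 of its genome value of 1.15, a choice made after seeing the data, the H3R8me2a ratio was 1.62, with 40.4 Mb in WT and 65.6 Mb in KO. These arms still ran from 0.64 on 10p to 4.17 on 16q. The choice thus kept arms with extreme H3R8me2a ratios and does not show how far the whole-genome ratio rests on such arms.

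For each gene, the bases under H3R8me2a were summed over the gene and 5 kb upstream. A gene counted as a gain if its bases in KO were at least 2 times those in WT and exceeded them by 1 kb or more, and as a loss with the genotypes exchanged. The rule uses size alone and is not a test. Among the 20098 coding genes, gains numbered 4026 (20%) and losses 1618 (8.05%), so that gains were 71.3% of the calls. Scaled to the same covered length in total the libraries gave 3272 gains and 2331 losses, and gains were 58.4% of the calls. Scaled within each chromosome gains were 55.3%, and within each arm 54.0%. Scaling multiplies all KO lengths of a chromosome or arm by the same factor. Where the ratio is above 2, a gene covered equally in both libraries is then called a loss if the scaled lengths differ by 1 kb. Where the ratio is low enough it is called a gain. The arms below 1 held 853 of the 1618 losses and 209 of the 4026 gains among 3930 genes. On the 27 arms with a like H3K4me3 ratio, gains numbered 2646 and losses 862 among 13692 genes.

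The genes with the largest gains in percent of their region went from no base to the whole region. At 100% the order is alphabetical, among regions of at least 20 kb and with at most 2 genes taken per Mb. AHCY, which clears the S-adenosylhomocysteine left by methyltransferases, had 0 kb in WT and 36.5 kb in KO on 20q. MRAS, a small GTPase of the RAS family, had 0 and 62.9 kb on 3q. EPHB3, an ephrin receptor, had 0 and 25.6 kb on 3q, and its whole region was under H3K27me3 in both genotypes. NBEAL2, needed for platelet granules, and PCBP4, an RNA-binding protein, went from 0 kb to 35.0 kb and from 0 kb to 21.6 kb, on 3p. LPIN3, a phosphatidate phosphatase, and BPIFB3, of a family of lipid-binding proteins, had 24.8 kb and 24.9 kb in KO on 20q, and KCNH3, a potassium channel, had 24.3 kb in KO on 12q. All 8 genes lay on arms with a ratio above 1, and 7 of the 8 had more H3K4me3 over the region in KO. H3K4me3 over AHCY was 5.4 kb in WT and 8.6 kb in KO, over EPHB3 9.8 kb and 23 kb, over KCNH3 5.4 kb and 10.8 kb, over LPIN3 4 kb and 6.6 kb, over NBEAL2 8.05 kb and 29.4 kb, over PCBP4 12.6 kb and 19.9 kb, and over MRAS 8.2 kb and 10.1 kb. BPIFB3 had none.

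Of the 8 genes with the largest losses in percent, 7 lay on arms with a ratio below 1. HMGCS1, an enzyme of cholesterol synthesis, had 29.2 kb in WT and 0 kb in KO on 5p. SEC22B, a SNARE of transport between endoplasmic reticulum and Golgi, had 26.9 kb and 2.39 kb on 1q. It has near-identical copies, so its reads may be uncertain. MFNG, a glycosyltransferase that modifies Notch, had 21.1 kb and 1.63 kb on 22q. LZTR1, an adaptor in the turnover of RAS proteins, had 21.8 kb and 2.92 kb, and its neighbor AIFM3 had 17.8 kb and 0.41 kb, also on 22q. C10orf105 had 24.7 kb and 0 kb on 10q, STARD5, a sterol transfer protein, 14.4 kb and 0 kb on 15q, and SLC34A1, a phosphate transporter, 18.4 kb and 2.05 kb on 5q. H3K4me3 over these genes varied. That mark measured 9.4 kb over HMGCS1 in WT and 7.8 kb in KO. LZTR1 had 10.5 kb and 9.52 kb, STARD5 4.2 kb and 3.8 kb, SEC22B 12.99 kb and 25.7 kb, and MFNG 1.43 kb and 0 kb.

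On the arms with the extreme ratios, the 2 genes with the largest change in bases on each were the following. On 3p IQSEC1, an exchange factor of ARF GTPases, went from 3 kb to 143 kb and CACNA2D2, a calcium channel subunit, from 0 to 107.6 kb. On 16q GSE1, a coiled-coil protein, went from 0 to 216.4 kb and ZFPM1, a cofactor of GATA factors, from 0 to 53.0 kb. On 7q GTF2IRD1, a transcription factor of the Williams syndrome region, had 18.2 and 83.2 kb, and PRKAG2, a subunit of the AMP-activated kinase, 22.6 and 79 kb. On 10q the potassium channel KCNMA1 had 55 and 12.8 kb and NEURL1, a ubiquitin ligase, 37.4 and 0 kb. On 18q TMEM241, a membrane protein, had 140.9 and 24.2 kb and CTIF, a translation factor, 51.2 and 0 kb. On 5p TRIO had 290.4 and 89.6 kb and RAI14 74.9 and 0 kb. The 20 genes with the largest loss in bases all lay on arms below 1 and the 20 with the largest gain all on arms above 1.

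Promoters marked in 1 library alone were ranked by the island over the start. In KO alone, DNAJB8, a chaperone of the testis, lay under the 145-kb island of 3q, PLTP, the phospholipid transfer protein of plasma, under an island of 87.6 kb, and DUSP15, MYLK2 and TTLL9 under 1 of 83 kb, the last 4 genes on 20q. In WT alone, SEC22B lay under an island of 64.8 kb, RAI14 under 59.4 kb, MYO10, a filopodial myosin, under 54.4 kb, and CASTOR1, an arginine sensor of the mTORC1 pathway, under 43.4 kb. In the full 4-kb window around the start of RAI14 and MYO10, WT was covered throughout and KO had 0 kb.

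RIOX2, which encodes mdig, had 0 kb of H3R8me2a in WT and 6.6 kb in KO, of which 3.1 kb lay within 2 kb of the start, on 3q. Its H3K4me3 was 3 kb and 3.8 kb. The islands hold no sequence of reads and so do not show the edit.

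Arginine methyltransferases include the enzymes that write the mark. Of 9 genes, 5 had a gain (55.6%, against 20% of all coding genes) and 0 a loss. The counts were the same with each of the 3 scalings. All 5 gains started at 0 kb in WT, where scaling can undo a call only through the 1-kb difference. The scalings are therefore a weak check on these 5. Their median coverage of the region was 0% in WT and 11.3% in KO, and over all coding genes it was 0% in both. H3R8me2a was at the promoter of 2 in WT and 6 in KO. PRMT1, the main type I enzyme, had 0 kb in WT and 13.2 kb in KO. CARM1, a coactivator that also methylates histone H3, also had 0 and 13.2 kb, all outside its promoter. PRMT2, the H3R8 writer, had 0 and 4.2 kb, PRMT7 0 and 6.2 kb and PRMT9 0 and 4.6 kb. PRMT3 had 3 kb and 5.8 kb and PRMT6 2.6 kb and 3.6 kb, neither of which met the rule. PRMT5, the symmetric writer, and PRMT8, a brain enzyme, had 0 kb in both libraries. H3K4me3 lay at 8 of the 9 promoters in both genotypes. Over CARM1 it measured 4.6 kb (WT) and 8.75 kb (KO). Over PRMT1 it measured 10.2 and 9.69 kb. All 5 gains lay on arms with a ratio above 1. PRMT1 and CARM1 lie on chromosome 19, whose arms had ratios of 2.06 and 2.18. PRMT7 lies on 16q, with a ratio of 4.17, PRMT2 on 21q, with 2.26, and PRMT9 on 4q, with 1.59. Islands over a gene do not tell how much of its protein is made.

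Genes that work with methylarginine are its readers and the partners of the methyltransferases. Among 15, 3 had a gain (20%, near the 20% of all coding genes) and 2 a loss (13.3%, against 8.05%). Each library had 7 marked promoters. SND1, a reader of methylarginine, had 2 kb in WT and 46.3 kb in KO on 7q. CLNS1A and RIOK1, which each bring substrates to PRMT5, had 0 and 5.6 kb and 0 and 3.8 kb. BTG1, a cofactor of PRMT1, had 4.4 and 0 kb and COPRS, which binds PRMT5 on histones, 3.2 and 0 kb. BTG2 had 9.11 kb in both.

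JmjC proteins and enzymes of H3K9, the neighboring residue, had 5 gains (22.7%, near the 20% of all coding genes) and 0 losses among 22, and 5 gains and 2 or 3 losses with scaling. The mark was at 12 of their promoters in WT and 16 in KO. RIOX2 was 1 of the gains. KDM4B, an H3K9 demethylase, had 7.6 and 26 kb, and CBX1, a heterochromatin protein that binds methylated H3K9, 0 and 12.8 kb.

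HOX genes, which pattern the body axis, had 10 gains (25.6%, near the 20% of all coding genes) and 0 losses among 39, and the mark was at 4 promoters in WT and 14 in KO, all on arms with a like H3K4me3 ratio. With scaling there were 9 gains and 0 or 1 loss. HOXB7 had 5.6 kb in WT and 28.5 kb in KO, HOXC9 and HOXC6 0 and 11 kb each, which share 1 stretch, and HOXA9 0 and 7.6 kb. Of the HOXB cluster, HOXB8 had 0.65 and 7.72 kb, HOXB9 4.08 and 10.2 kb, and HOXB2 0 and 5.95 kb. HOXB5 had 7.52 and 6.14 kb. The region of HOXC9 was under H3K27me3 throughout in both genotypes, as were those of HOXB8 and HOXB9, and HOXB2 had none. Neighboring HOX genes share islands and are not independent of each other.

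**Figure D4:**
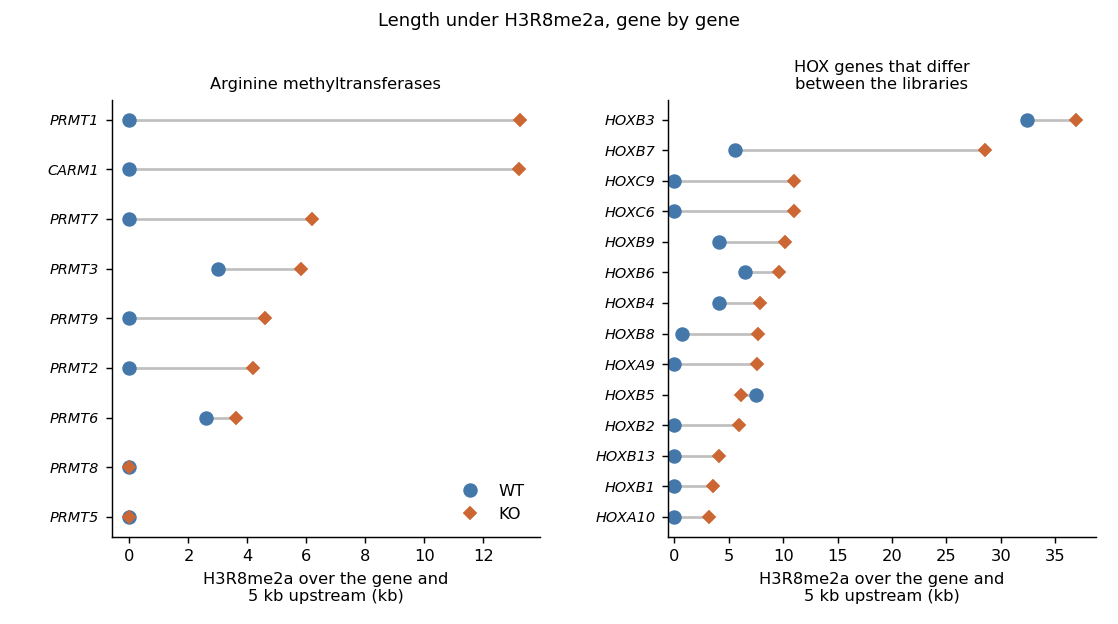
Length under H3R8me2a over the gene and 5 kb upstream (kb, horizontal axes, each with its own range) in WT (blue circles) and KO (orange diamonds) for the 9 arginine methyltransferases (left) and the 14 HOX genes whose length differed between the libraries (right), 1 library per genotype. PRMT1 and CARM1 go from 0 to 13.2 kb and HOXB7 from 5.6 to 28.5 kb, while HOXB5 alone is shorter in KO.

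Replication-dependent histone genes, of which 64 were tested, had 16 gains (25%, near the 20% of all coding genes) and 1 loss (1.56%, against 8.05%) and went from 24 marked promoters in WT to 39 in KO. They lie in clusters on 6p and 1q and share islands. H2AC25 had 0 kb in WT and 8 kb in KO, H2BC26 0 and 6.60 kb, H2BC14 0 and 5.47 kb, and H2BC12 4.06 and 1.86 kb. Near-identical copies in these clusters may make the reads of single genes uncertain. With scaling there were 14 gains and 4 to 6 losses.

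Genes of the WNT pathway had 14 gains (25%, near the 20% of all coding genes) and 2 losses (3.57%, against 8.05%) among 56, and marked promoters went from 14 to 24. LRP5, a co-receptor, had 0 kb in WT and 57.8 kb in KO. Of the ligands, WNT11 had 0 and 23.6 kb, WNT4 8.40 and 28.0 kb, WNT10B 0 and 8.2 kb, and WNT1 0 and 8.50 kb. TCF7L1, a nuclear effector, had 0 and 23.9 kb, while its relative TCF7L2, on 10q, had 14.4 and 4 kb. With scaling there were 11 to 13 gains and 4 losses. Of the 37 genes on the like arms, 11 had a gain and 0 a loss. Among all 13692 coding genes on those arms the numbers were 2646 and 862.

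Among the genes of the matrix and of adhesion the directions were mixed. Collagens had 12 gains (27.3%, against 20% of all coding genes) and 4 losses (9.09%, against 8.05%) among 44, and 8 to 10 gains and 5 losses with scaling. COL18A1, of basement membranes, had 25 kb in WT and 83 kb in KO, COL5A1, a fibrillar collagen, 27.6 and 74.0 kb, and COL7A1, of anchoring fibrils, 0 and 35.5 kb on 3p. COL13A1, a transmembrane collagen, had 29.2 and 0 kb on 10q, COL15A1 9 and 0 kb, and COL6A2 15.6 and 7.4 kb. Integrins and laminins had 5 gains and 5 losses among 32, 15.6% each, against 20% and 8.05%. With scaling there were 2 or 3 gains and 5 to 7 losses. LAMC3 had 0 and 31.7 kb and LAMB3 18.4 and 41.0 kb, while ITGA11, a collagen receptor, had 27.8 and 0 kb on 15q. Genes of the actin cytoskeleton and of focal adhesions had 4 gains (9.52%) and 5 losses (11.9%) among 42. With scaling there were 2 to 4 gains and 8 to 13 losses. RDX, a linker of actin to the membrane, had 0 and 13.4 kb on 11q and ACTB, cytoplasmic actin, 18.8 and 8.16 kb on 7p.

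Genes of the epithelial to mesenchymal transition had 3 gains and 6 losses (37.5%, against 8.05% of all coding genes) among 16, with 2 to 4 gains and 6 or 7 losses under the scalings, and the mark was at 10 of their promoters in WT and 8 in KO. ZEB2, a repressor of epithelial genes, had 9 kb in WT and 0 kb in KO, TWIST2 6.4 and 0.03 kb, FN1, fibronectin, 4.2 and 0 kb, and SNAI2 2.4 and 0 kb. ACTA2, smooth muscle actin, had 4 and 0 kb on 10q, and CDH2, N-cadherin, 4 and 0 kb on 18q. In the other direction, TAGLN, transgelin, had 0 and 12.1 kb on 11q, LOX, a collagen crosslinker, 0 and 1.8 kb, and ZEB1 0 and 1 kb. Leaving out the arms with a differing H3K4me3 ratio, 4 of 12 genes had a loss and 2 a gain. Of all 13692 coding genes on the arms kept, 862 had a loss and 2646 a gain. Over all 16 genes the median coverage was 5.39% in WT and 0.25% in KO, while the mean was 20.7% and 24.7% and the median of the differences was 0 percentage points. Over all coding genes the mean was 10.9% and 17.0%. The 10 mesenchymal markers had a median of 3.404% and 26.7%.

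The TGFβ and BMP pathway had 6 gains and 6 losses among 40, 15% each, against 20% and 8.05% of all coding genes. With scaling there were 3 or 4 gains and 6 or 7 losses. The losses were in TGFB2, a ligand, with 31.4 and 10.4 kb, THBS1, an activator of TGFβ, 15.6 and 4 kb, SMAD7, the inhibitory SMAD, 13 and 0 kb on 18q, GREM1, a BMP antagonist, BMPR1A and LTBP2. SMAD3, the effector, had 93.4 and 51.8 kb, which did not meet the rule. The gains included LTBP3, a latency protein, with 7.4 and 23.2 kb, and ACVR2B, an activin receptor, with 0 and 15.4 kb on 3p.

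Receptor tyrosine kinases had 9 gains (22.5%) and 4 losses (10%) among 40, near the 20% and 8.05% of all coding genes. EPHB2, an ephrin receptor, went from 33 kb in WT to 104.2 kb in KO, and DDR2, a collagen receptor, from 0 to 24 kb. EGFR had 33 and 6.2 kb on 7p, although its promoter window was covered throughout in both libraries. ROR2, a WNT5A receptor, had 18 and 0 kb. With scaling there were 5 to 8 gains and 3 or 4 losses. Of 28 genes of the NF-κB pathway 9 had a gain (32.1%, against 20%) and 3 a loss (10.7%, against 8.05%). NFKBIA, the inhibitor of NF-κB, had 0 and 4.92 kb, TNFAIP3, the A20 deubiquitinase, 0 and 7.2 kb on 6q, and IKBKG, the scaffold of the kinase, 2.2 and 10.4 kb, while TAB2 had 5 and 0 kb on 6q. This was 7 and 7 with the total scaled, 6 and 4 within chromosomes and 6 and 5 within arms.

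YAP, TEAD and Hippo genes had 7 gains (33.3%, against 20% of all coding genes) and 4 losses (19.0%, against 8.05%) among 21, and 5 or 6 gains and 4 to 7 losses with scaling. The mark was at 11 promoters in WT and 12 in KO. TEAD4, a DNA-binding partner of YAP, had 5.6 and 30.4 kb, VGLL4, a competitor of YAP for TEAD factors, 0 and 26 kb on 3p, and the upstream regulator NF2 12 and 0 kb on 22q. Cadherins and claudins, of cell junctions, had 8 gains (17.0%, near the 20%) and 2 losses (4.26%, against 8.05%) among 47. CDH22 had 0 and 34.5 kb on 20q and CDH23 56.8 and 24.8 kb on 10q.

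Interleukins and their receptors had 17 gains (21.8%) and 6 losses (7.69%) among 78, close to the 20% and 8.05% of all coding genes, and marked promoters went from 10 to 19. IL17RE, a receptor of epithelial cells, had 0 and 17.8 kb on 3p and IL1RAP, a co-receptor of interleukin-1, 0 and 14.8 kb on 3q. IL7R, the interleukin-7 receptor, had 21.1 and 0 kb on 5p, and all 6 losses lay on arms with a ratio below 1. Of 14 stemness genes that the study names, a list that is not independent of these cells, 2 promoters were marked in each library. PPARG, a factor of fat cells, had 0 and 3.2 kb, SPOCK1, a matrix proteoglycan, 26.2 and 0 kb on 5q, and PDGFB, a growth factor, 14.8 and 0 kb on 22q.

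The lists of cell type markers had gains at 20% to 30% of their genes, against 20% of all coding genes, and losses at 0% to 20%, against 8.05%. H3R8me2a was at 4 of 15 epithelial marker promoters in WT and 7 in KO, with 3 gains and 0 losses, and at 6 of 10 mesenchymal ones in both, with 2 and 2. It was at 0 and 1 of 10 leukocyte markers, with 3 gains and 0 losses, and at 1 and 2 of 10 neuron markers, with 2 gains and 1 loss.

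Genes of ribosomal proteins, immediate early factors and glycolysis were among the lists marked most often. Over all coding genes 20% had a gain and 8.05% a loss. Ribosomal protein genes had H3R8me2a at 62 of 77 promoters in WT and 67 in KO. They had 11 gains (14.3%) and 5 losses (6.49%) as called. This turned to 9 and 11 with the total scaled, 6 and 21 within chromosomes and 6 and 18 within arms. Losses outnumbered gains under all 3 scalings. On chromosomes or arms with a ratio above 2, scaling calls a loss even where both libraries cover a gene equally. The counts within chromosomes and arms therefore cannot show a loss of the mark. RPL22 had 6.8 and 20.05 kb, RPL6 0 and 11.6 kb, and RPS24, on 10q, 7.88 and 0 kb. AP-1 and immediate early factors had the mark at 14 of 20 promoters in WT and 15 in KO. Their median coverage was 65.1% of the region in WT and 53.3% in KO, while the mean was 50.7% and 52.2% and the median of the differences was 0 percentage points. Of these genes 3 had a gain (15%) and 1 a loss (5%), MAFF, with 13.8 and 5.8 kb on 22q. There were 3 gains and 5 losses with the total scaled, 2 and 2 within chromosomes and 3 and 2 within arms. Among members chosen after their values were seen, JUN had 7 and 6.6 kb, FOSL2 27.3 and 20.6 kb, FOSL1 11.9 and 7.08 kb, and FOS 0 kb in both. Genes of glycolysis had the mark at 12 promoters in WT and 13 in KO of 18, with 4 gains (22.2%) and 3 losses (16.7%). PFKL, the liver type of phosphofructokinase, had 10.8 and 30.1 kb and PFKP, the platelet type, 29.8 and 8.4 kb on 10p. Those of the respiratory chain had it at 37 and 49 of 83, with 20 gains (24.1%) and 5 losses (6.02%). Scaling within the arms brought these to 18 and 15. SDHA, of complex II, had 10.4 and 23.2 kb, although it lies on 5p.

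Proteasome genes had the mark at 27 promoters in WT and 26 in KO of 48. There were 7 gains (14.6%, against 20% of all coding genes) and 8 losses (16.7%, against 8.05%). With scaling there were 5 or 6 gains and 12 to 18 losses. PSMF1, an inhibitor of the proteasome, had 6.2 and 17.2 kb and PSMA2, a subunit of its core, 7.2 and 0 kb. DNA replication genes had 9 gains (28.1%, against 20%) and 3 losses (9.38%, near 8.05%) among 32. With scaling there were 6 or 7 gains and 5 to 7 losses. RFC5, of the clamp loader, had 0 and 19.2 kb and CDC6, a licensing factor, 6.4 and 0 kb. Genes of autophagy and lysosomes had 9 gains (30%, against 20%) and 5 losses (16.7%, against 8.05%) among 30. With scaling there were 7 gains and 7 or 8 losses. ATG7 had 0 and 27.2 kb on 3p and ATG5, which acts downstream of it in the same conjugation, 11.2 and 0 kb on 6q.

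Several classes were seldom marked. Their shares of gains and losses stand against 20% and 8.05% of all coding genes. Olfactory receptors had H3R8me2a at 0 of 399 promoters in WT and 1 in KO, with 2 gains (0.50%) and 0 losses. The clustered protocadherins of 5q had it at 0 of 53 promoters in both libraries and had 0 calls, although 22 carried some of it in their region. With the total scaled those 22 were called as losses, and with the arms or chromosomes scaled 0 were. The 22 are PCDHG genes with near-equal covered lengths, share islands and are not independent of each other. Chemokines had 1 and 4 marked promoters of 48, 5 gains (10.4%) and 1 loss (2.08%). CXCL1, a neutrophil chemokine, had 0 and 3 kb and CXCL16 0 and 11.4 kb. Keratins had 5 and 11 marked promoters of 55, 7 gains (12.7%) and 1 loss (1.82%). KRT15, of basal cells, had 0 and 10.8 kb, KRT13 0 and 4.76 kb, KRT19 0 and 2.93 kb and KRT8 31.8 and 38.4 kb. Zinc finger genes had 78 and 122 of 508, with 89 gains (17.5%) and 32 losses (6.30%). Scaling within the arms brought these to 58 and 46. Channels and neurotransmitter receptors had 15 and 28 marked promoters of 165, with 29 gains (17.6%) and 6 losses (3.64%). With scaling there were 23 to 25 gains and 8 to 10 losses. The glutamate receptor GRM4 had 0 and 76.2 kb, and the calcium channels CACNA1S 0 and 54.4 kb and CACNA1I, on 22q, 48.0 and 8.6 kb.

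**Figure D5:**
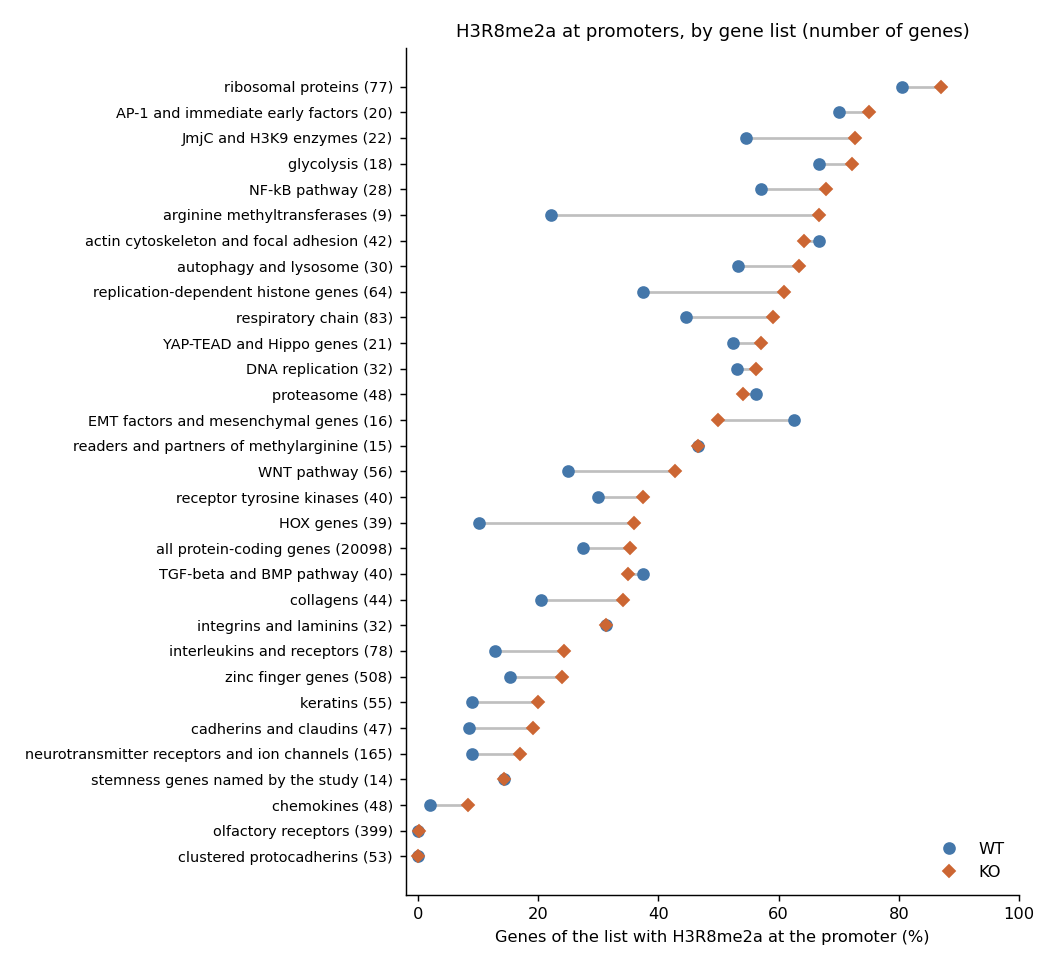
Share of the genes of each list with H3R8me2a at the promoter (%, horizontal axis) in WT (blue circles) and KO (orange diamonds), for the lists described in the text, with the number of genes in brackets and 1 library per genotype. Over all protein-coding genes the share is 27.5% in WT and 35.3% in KO, arginine methyltransferases go from 22.2% to 66.7% and HOX genes from 10.3% to 35.9%, and genes of the epithelial to mesenchymal transition are lower in KO, at 50% against 62.5%.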

How the data were processed

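ChIP-seq islands of H3R8me2a and, as context, of H3K4me3, H3K27me3 and H3K9me3 were read for WT and mdig KO BEAS-2B cells, with 1 library per mark and genotype and 8 in all. Per the study's methods, the authors aligned reads to hg19 with BWA (version not given in the sources used here), extended them to 200 bp and reduced tags to the smallest sample of a comparison. The submitters' processing notes name SICER 1.1, and the deposited islands are given per library. The deposited file holds chromosome, start and end of each island and no read counts, signal or score. Depth is therefore unknown, and input DNA was not analysed here. Columns of per-sample values left out numbered 0.

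Islands were compared with Python 3.11.15, numpy 2.4.6 and pysam 0.24.0 against the protein-coding genes of GENCODE 44 on GRCh37, the same build. The steps were tested on simulated islands. Gains and losses followed the rule of size given with the results, and no test was run. Libraries were taken as called, and also scaled to the same covered length in total, within each chromosome or within each arm. Alternatives covered the size rule, the gene region, the promoter width, short islands, merged gaps and the autosomes.

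The members and lists were chosen with earlier results of these data known. Genes were named by a rule: the 8 largest gains and losses in percent of regions of at least 20 kb, the 5 longest islands of each library, up to 3 gains and 3 losses per list and promoters marked in 1 library alone, the top genes of extreme arms, the 5 promoters under the longest islands each way, RIOX2 and the arginine methyltransferases. From the largest of these groups only examples are given, and some genes and 1 list are not reported here. HOXB5, HOXB9, BTG2, KRT8, LTBP2, JUN, FOS, FOSL1 and FOSL2 were named outside it, after their values were seen.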

Additional observations from a re-analysis of the deposited data

How the results depend on the processing

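Of 64 values recomputed under alternative settings, 46 stayed within the range set for them and 18 moved past it. The range was 1.5 times for counts and ratios and the 95% Wilson interval for shares. For shares of bases that interval took the number of islands as its count, so it is only a yardstick and not an interval of the share. Among these values a reversal could be scored for the covered length ratio alone, which did not reverse. Calls of single genes did reverse. With arms scaled 51 gains became losses and 4 losses became gains, and with chromosomes scaled 9 and 0. With 5 kb on both sides of the start it was 23 and 5, with the gene body alone 2 and 2, and with islands of at least 5 kb 0 and 3. Arm scaling can exceed the region itself, as for CABLES1, with 224.6 kb in KO over a region of 130.9 kb. The covered length ratio stayed between 1.61 and 1.68. Genes with a loss numbered 789 with a smallest difference of 5 kb, 2630 with libraries scaled within each chromosome and 2640 within each arm. The arm settings were chosen after seeing the data, as were the arms with an H3K4me3 ratio within 0.1 of the genome value, which by construction hold fewer genes and gave 2646 gains, 862 losses, 598 promoters marked in WT alone and 1739 in KO alone. With islands of at least 5 kb, 3640 promoters were marked in WT, 69.4% of WT and 45.3% of KO islands overlapped the other library, H3K4me3 lay under 43.5% of the WT and 38.9% of the KO bases, and H3K9me3 under 0.89% and 7.90%. With at least 50% of an island covered the overlaps were 65.4% and 42.0%. With islands of the WT libraries for both, H3K4me3 lay under 39.3% and H3K9me3 under 0.92% of the KO bases. The cause of these moves was not tested. No paired analysis was possible because each genotype had 1 library of the mark.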
